A study of Mus musculus with 6 samples.

Results

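GIMAP and Schlafen genes were followed in T-regulatory (Treg) cells with and without histone deacetylase 11 (HDAC11). Some members of these 2 gene families help lymphocytes to stay alive or at rest. The 8 listed genes were Gimap3, Gimap4, Gimap6, Gimap8, Slfn1, Slfn2, Slfn3 and Slfn4, and a probe set was taken when the platform annotation gave it a single gene symbol from that list. This gave 8 probe sets for 7 of the 8 genes, out of 22626 tested probe sets. Gimap4 had 2 probe sets, the other measured genes had 1 each, and Gimap8 was not named by the annotation and was not analysed here.

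RNA from CD4+CD25+ Treg cells was hybridised to Affymetrix mouse arrays, 3 arrays for HDAC11-/- cells and 3 for WT cells. HDAC11-/- mice carried Foxp3 YFP-Cre and floxed Hdac11 alleles, so that Cre was made where Foxp3 was expressed, and WT cells were labelled C57BL6 with no Cre allele named. An effect of the Cre allele and one of the deletion therefore cannot be told apart. Cells were separated on magnetic beads by surface CD4 and CD25, male mice were used, and the methods put their age at 6 to 8 weeks unless otherwise specified. The labels do not say whether each array came from its own mouse, and the p-values given here reflect array-to-array spread alone, which may be technical. In these bulk samples, fewer cells of a type and less RNA per cell cannot be told apart.

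GIMAP proteins (GTPases of immunity-associated proteins) are GTP-binding proteins of lymphocytes, encoded in a single gene cluster, and several of them are needed for the survival of mature T and B cells. Schlafen proteins are a mouse and human family whose founding member, Slfn1, restrains the growth of thymocytes, and a mutation of Slfn2 in the elektra mouse leaves T cells unable to hold quiescence. Many Schlafen genes are induced by interferon, and Slfn4 is best known from myeloid cells.

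The 4 Schlafen members lie side by side on mouse chromosome 11, and their promoters shared a short run of bases. RefSeq promoter sequences of build GRCm38.p6 matched 8 of 8 listed genes. The longest run present on the gene's own strand within the 250 bases before the start of all 4 Schlafen members was ACTTCCTGG, a 9-base run, which began 74, 55, 42 and 73 bases before the start of Slfn1, Slfn2, Slfn3 and Slfn4. The same run lay in 0.347% of 32851 promoters on the gene's own strand and in 0.7% on either strand. It was picked because all 4 promoters hold it, so these shares are a description and not a test. The last 100 bases before each start are shown so that this run, in capitals, can be read in its place in each promoter.
Slfn1, chr11:83116720-83116819, plus strand: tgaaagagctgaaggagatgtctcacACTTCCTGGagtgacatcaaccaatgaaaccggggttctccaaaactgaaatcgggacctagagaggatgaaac
Slfn2, chr11:83065012-83065111, plus strand: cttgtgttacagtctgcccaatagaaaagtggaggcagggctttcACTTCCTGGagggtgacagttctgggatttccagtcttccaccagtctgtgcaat
Slfn3, chr11:83191230-83191329, plus strand: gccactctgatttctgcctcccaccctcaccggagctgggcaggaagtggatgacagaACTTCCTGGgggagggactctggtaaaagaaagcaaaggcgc
Slfn4, chr11:83175086-83175185, plus strand: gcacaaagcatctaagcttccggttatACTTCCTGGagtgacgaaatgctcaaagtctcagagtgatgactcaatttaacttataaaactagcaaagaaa
The run holds within it ACTTCCT, a core bound by ETS factors, which was present on either strand in 7.69% of all promoters. AP-1 sites, searched as TGANTCA, were in 6.75% of promoters and in 1 of 8 listed genes, Slfn4, where the match began 34 bases before the start. The core of the interferon-stimulated response element, searched as GAAANNGAA on both strands, was in 7.13% of promoters and in 0 of 8 listed genes. Slfn5, Slfn9 and Slfn14 of the Schlafen cluster, which had no probe set of their own, carried matches. Slfn8, which also lies in the Schlafen cluster and whose probe set changed most in either family among those above the control range, carried a match on the opposite strand, beginning 47 bases before its first listed start and shown here in capitals.
Slfn8, chr11:83020811-83020910, minus strand: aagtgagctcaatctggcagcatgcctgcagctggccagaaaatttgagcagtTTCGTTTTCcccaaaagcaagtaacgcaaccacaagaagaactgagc
These matches describe the letters of the windows and are not evidence that a factor binds there.

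With a call set at a 1.5-fold change and an adjusted p under 0.05, 1 of the 8 member probe sets was called higher in HDAC11-/- Tregs, beside 3.87% of all tested probe sets, and 0 were called lower, beside 5.03%. The single call was that of Slfn3, whose values lay within the control range in both genotypes. That is, on every array they were no brighter than the brightest control probe set for bacterial RNA. Without the fold threshold, limma's moderated test with Benjamini-Hochberg adjustment passed 2 member probe sets as higher, beside 23.2% of all probe sets, and 4 as lower, beside 22.4%. The counts at an unadjusted p under 0.05 were the same, 2 higher and 4 lower. The 3 HDAC11-/- arrays lay wholly above the 3 WT arrays for 2 members (28.2% of all probe sets) and wholly below them for 5 members (28.5%). The median log2 fold change was -0.13 over the members, -0.19 over the members without Slfn3, and -0.03 over all tested probe sets.

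**Figure D1:**
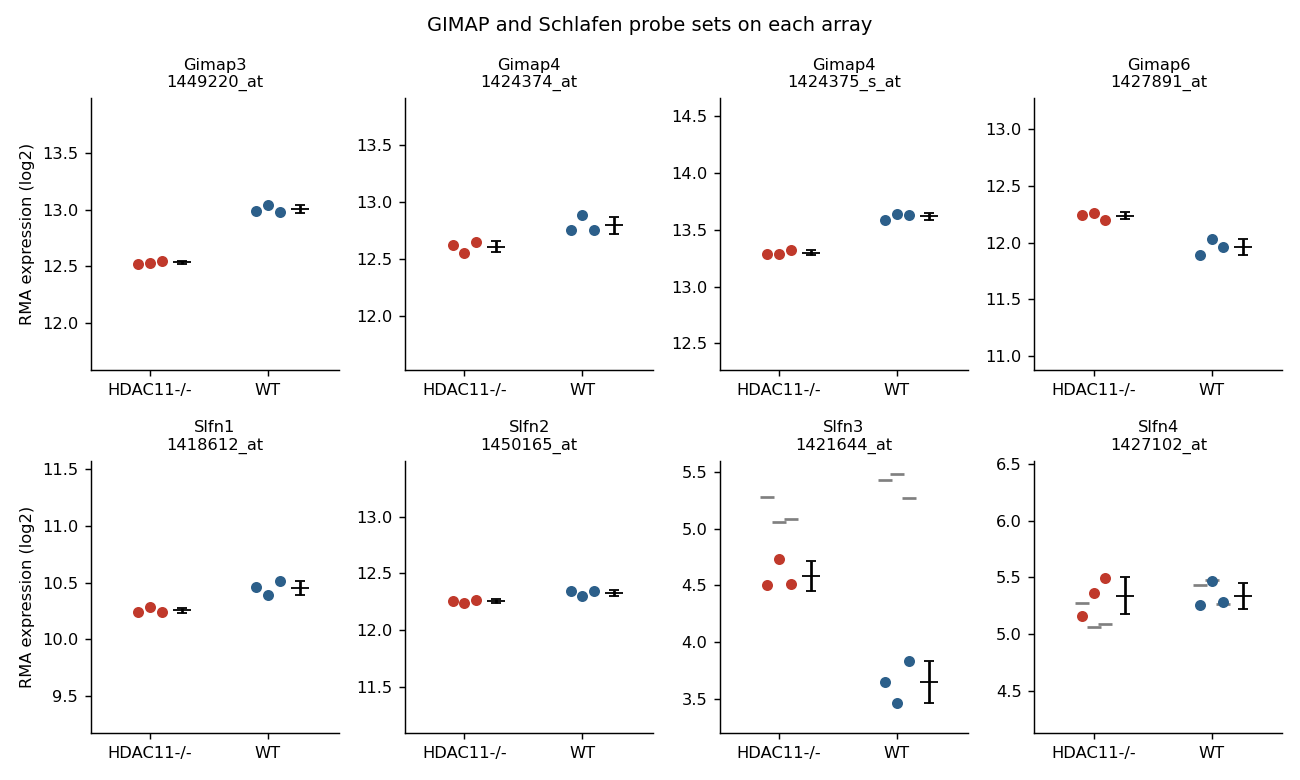
Expression of each member probe set (RMA, log2; every panel spans the same range of log2 units) on the 3 HDAC11-/- arrays (red) and the 3 WT arrays (blue), with the mean and SD beside the points; grey dashes in the Slfn3 and Slfn4 panels mark the brightest bacterial control on each array. HDAC11-/- points lie below WT points for Gimap3, both Gimap4 probe sets, Slfn1 and Slfn2, above them for Gimap6, and under the grey dashes in both genotypes for Slfn3.

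Gimap3, which in mice sits on intracellular membranes and is a close relative of Gimap5, had the widest gap of the GIMAP members. Its probe set read 12.52, 12.53 and 12.55 in HDAC11-/- Tregs, against 12.99, 13.04 and 12.98 in WT Tregs (log2). All 3 HDAC11-/- arrays were low, replicates lay within a few hundredths of each other, and the groups were far from overlapping. Gimap3 fell by 0.47 on the log2 scale (SE 0.04, 95% interval -0.58 to -0.37, limma adjusted p = 0.000319), which is 1.39-fold lower and short of the 1.5-fold threshold.

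Gimap4, a GIMAP protein that in mice hastens the death of T cells once apoptosis has begun, was read by 2 probe sets that moved the same way by different amounts. The one whose suffix, _s_at, marks possible cross-reading of related transcripts read 13.29, 13.29 and 13.32 in HDAC11-/- Tregs, against 13.58, 13.64 and 13.63 in WT Tregs. It fell by 0.32 (SE 0.04, limma adjusted p = 0.00152), or 1.25-fold. The other, the _at probe set, read 12.62, 12.55 and 12.65 in HDAC11-/- Tregs, against 12.75, 12.88 and 12.76 in WT Tregs, and fell by 0.19 (SE 0.06, limma adjusted p = 0.0328). Neither probe set had overlapping groups, but the _at probe set no longer passed the adjusted p when any of the HDAC11-/- replicates was left out (limma adjusted p 0.0589 to 0.11) or without WT replicate 2 (limma adjusted p = 0.0761).

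Gimap6, which binds a protein of the autophagy machinery, moved the opposite way from Gimap3 and Gimap4. It read 12.25, 12.26 and 12.20 in HDAC11-/- Tregs, against 11.89, 12.03 and 11.96 in WT Tregs. All 3 HDAC11-/- arrays were high, and Gimap6 rose by 0.27 (SE 0.05, limma adjusted p = 0.00607), which is 1.21-fold. Scaled on 12 reference genes, its log2 fold change was 0.13 and did not pass (adjusted p = 0.0705).

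The opposite movement of Gimap6 and Gimap3 was also measured within each array, where a scaling factor common to the array cancels. The difference Gimap6 minus Gimap3 was -0.28, -0.27 and -0.35 in HDAC11-/- Tregs, against -1.10, -1.01 and -1.02 in WT Tregs (log2). The genotypes differed by 0.75 in this difference, with no overlap of arrays. Against the 2 Gimap4 probe sets, the corresponding shifts were 0.46 (_at) and 0.59 (_s_at). A 2-sided exact permutation test gave p = 0.1 for each of 6 such differences (adjusted p = 0.1), the smallest value that 3 against 3 arrays can give. The design could not pass the threshold and the pairs were chosen with their values known, so these differences are a description, and they do not say which probe set of a pair changed.

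Gimap1 and Gimap7 were the other GIMAP genes with a probe set of their own. Gimap1, needed for the development of mature lymphocytes, read 11.29, 11.33 and 11.37 in HDAC11-/- Tregs, against 11.23, 11.27 and 11.16 in WT Tregs, with groups that did not overlap and a difference that did not pass (0.11, SE 0.05, limma adjusted p = 0.12; -0.04 when scaled on reference genes). Gimap7, a GTPase whose human form pairs with other GIMAP proteins, differed by -0.09 (SE 0.04, limma adjusted p = 0.164). Gimap5, Gimap8 and Gimap9 were not named by the annotation.

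Of the 4 Schlafen members listed, Slfn1 was the only one above the control range that passed the adjusted p. It read 10.24, 10.28 and 10.24 in HDAC11-/- Tregs, against 10.46, 10.39 and 10.51 in WT Tregs, with all 3 HDAC11-/- arrays below all WT arrays. Slfn1 fell by 0.20 (SE 0.05, limma adjusted p = 0.0164), which is 1.15-fold, and no longer passed the adjusted p without HDAC11-/- replicate 1 (limma adjusted p = 0.0545) or without HDAC11-/- replicate 3 (limma adjusted p = 0.0575).

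Slfn2, the quiescence gene of the elektra mouse, read 12.26, 12.24 and 12.27 in HDAC11-/- Tregs, against 12.35, 12.30 and 12.34 in WT Tregs. The groups did not overlap, but the gap was small, -0.07 with a 95% interval of -0.17 to 0.03, and did not pass (limma adjusted p = 0.206). The interval leaves out a 1.5-fold difference (0.58 on the log2 scale) in either direction.

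Slfn3 and Slfn4 are closely related genes of intermediate length in the family, and both read low on these arrays, Slfn3 within the control range and Slfn4 about its upper edge. Slfn3 read 4.50, 4.74 and 4.51 in HDAC11-/- Tregs, against 3.65, 3.47 and 3.83 in WT Tregs, and on every array this was below the brightest of 27 bacterial control probe sets (5.06 to 5.28 in HDAC11-/- Tregs and 5.27 to 5.48 in WT Tregs). The groups did not overlap and the probe set passed (limma adjusted p = 0.000805), but with both genotypes inside the control range no fold change is given. Another probe set that the annotation assigns to Slfn4 and Slfn3 together read 4.16, 4.03 and 4.17 in HDAC11-/- Tregs, against 3.95, 3.56 and 3.85 in WT Tregs, again inside the control range. Its groups did not overlap and it passed as higher (limma adjusted p = 0.0391). It no longer passed when any of the HDAC11-/- replicates was left out (limma adjusted p 0.0573 to 0.1085).

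Slfn4 read 5.16, 5.36 and 5.49 in HDAC11-/- Tregs, against 5.26, 5.47 and 5.28 in WT Tregs, close to the brightest control in both. The groups overlapped, and the difference was 0.00 (SE 0.10, limma adjusted p = 0.979), with a 95% interval of -0.23 to 0.24. Slfn4 is a myeloid gene, and the neutrophil markers, of which 2 of 10 were called higher (S100a8 and S100a9), summed to 342 to 358 in HDAC11-/- Tregs, against 238 to 264 in WT Tregs on the linear scale. Among 10 measured neutrophil markers, 5, Ltf and Mpo included, were within the control range in both genotypes. S100a8 and S100a9 were within it in WT Tregs. Over all genes by their brightest probe set, 3.46% were called higher. Macrophage and monocyte markers were called higher for 5 of 15 and lower for 0, and summed to 984 to 1012 in HDAC11-/- Tregs, against 763 to 816 in WT Tregs. Without the fold threshold, 11 of the 15 were higher and 1, Fcgr3 (-0.50), was lower. Within the control range in both genotypes were 5 of the 15, among them Cd14, Adgre1 and C1qb, which is 1 of the 5 called higher. C1qa and C1qc, also called higher, were within it in WT Tregs. The part of neutrophils, macrophages and monocytes in the Slfn3 and Slfn4 readings was not tested.

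Slfn8, a long Schlafen protein with a helicase-like domain, gave the only call in either family that was above the control range. It read 9.90, 9.88 and 9.86 in HDAC11-/- Tregs, against 10.77, 10.65 and 10.60 in WT Tregs, and fell by 0.79 (SE 0.06, limma adjusted p = 0.000128), which is 1.74-fold. Within arrays, the difference Slfn8 minus Slfn2 averaged -2.38 in HDAC11-/- Tregs and -1.66 in WT Tregs (log2), a shift of -0.72. Slfn8 was not among the 8 listed genes, and 3 of 11 other genes of both families were measured.

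**Figure D2:**
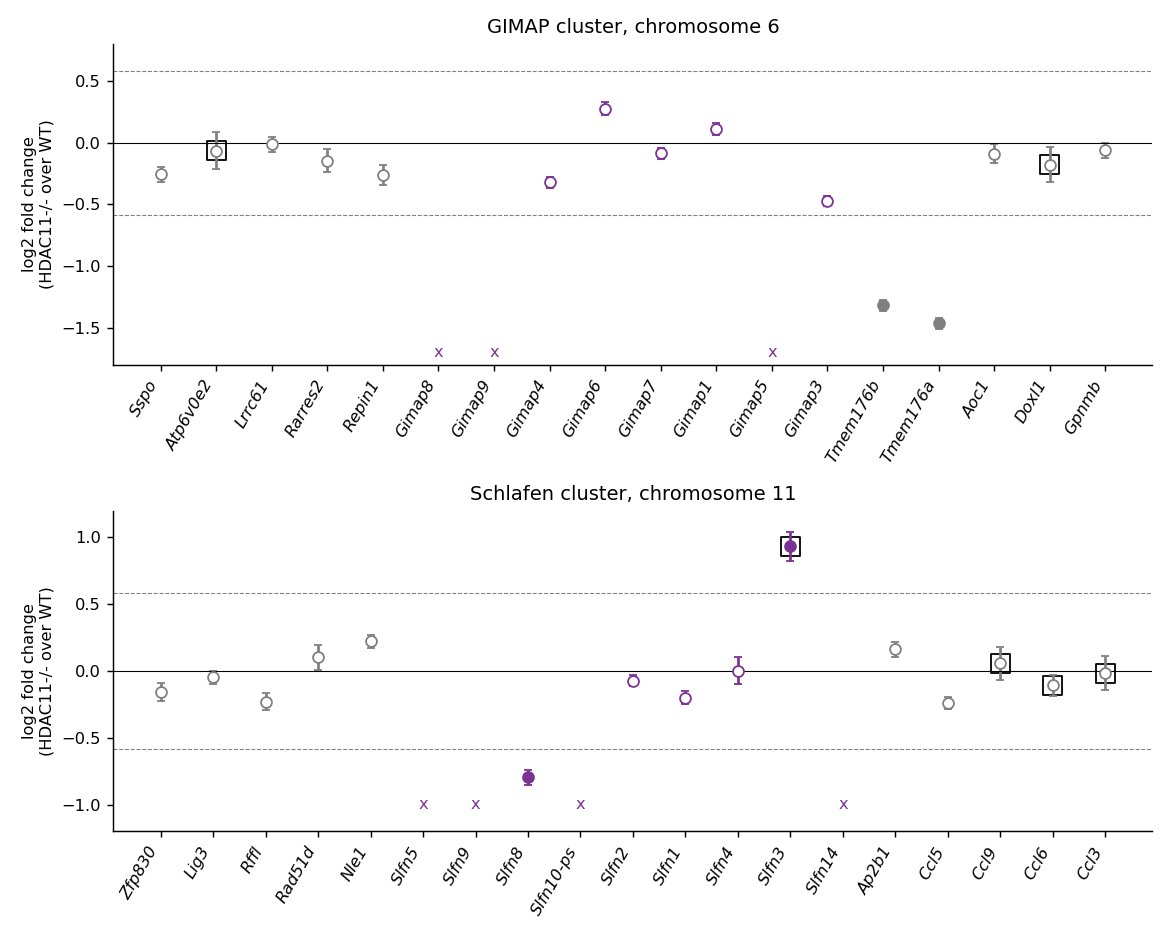
Log2 fold change (HDAC11-/- over WT, error bars SE) of each gene's brightest probe set in the gene order of GRCm38.p6, for the GIMAP cluster (upper panel) and the Schlafen cluster (lower panel), with family genes in purple and flanking genes in grey. Filled points were called, squares mark genes within the control range in both genotypes, a cross at the bottom marks a gene with no probe set of its own, and dashed lines mark 1.5-fold; Gimap6 (0.27) and Gimap3 (-0.47) lie on opposite sides of 0, and Tmem176b and Tmem176a are lowest.

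The order along the chromosomes set these values beside their neighbours. In the GIMAP cluster on chromosome 6, the order was Gimap8, Gimap9, Gimap4, Gimap6, Gimap7, Gimap1, Gimap5 and Gimap3, so Gimap6 (0.27) stood next to Gimap4 (-0.32 and -0.19). The genes directly beyond Gimap3 were Tmem176b and Tmem176a, paired membrane proteins, with log2 fold changes of -1.32 and -1.46, both called lower. They were the only calls among 10 measured flanking genes, whose log2 fold changes ranged from -1.46 to -0.01. In the Schlafen cluster on chromosome 11, 0 of 10 measured flanking genes were called in either direction (-0.24 to 0.22), and Slfn8 (-0.79) stood in the same cluster as Slfn2 (-0.07) and Slfn1 (-0.20).

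The members were also set beside probe sets of about the same level, since brightness and fold change were related on these arrays. Within 0.5 log2 units of Gimap3, 236 probe sets had a median log2 fold change of 0.09, and 3.39% of them were lower than Gimap3. Around the Gimap4 _s_at probe set the median over 154 probe sets was 0.07, and 3.9% were lower. Around the Gimap4 _at probe set the median over 246 probe sets was 0.09, and 13.8% were lower. Around Gimap6 the median over 474 probe sets was 0.12, with 19.2% higher than Gimap6. Slfn1 and Slfn2 lay below medians of 0.10 (1804 probe sets) and 0.12 (399 probe sets), and 20.2% and 23.6% of their windows were lower still. Across the windows of these brighter members, 10.4% to 23.8% of probe sets passed the adjusted p as lower and 24.7% to 45.4% as higher. Around Slfn3, inside the control range, the median over 3218 probe sets was -0.11, and 0.186% were higher than Slfn3. Around Slfn4 the median over 2723 probe sets was -0.12, and 30.6% were higher. The bright cre control probe sets, which read a spiked RNA and could also read Cre made by HDAC11-/- cells, averaged 13.79 on HDAC11-/- arrays and 14.27 on WT arrays, a difference of about the size of that of Gimap3. A bright control probe set for the B2 repeat averaged 13.88 on HDAC11-/- arrays and 14.36 on WT arrays, and the 3' probe set of Actb averaged 14.41 on HDAC11-/- arrays and 14.45 on WT arrays. Their part in the Gimap3 and Gimap4 values was not tested.

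**Figure D3:**
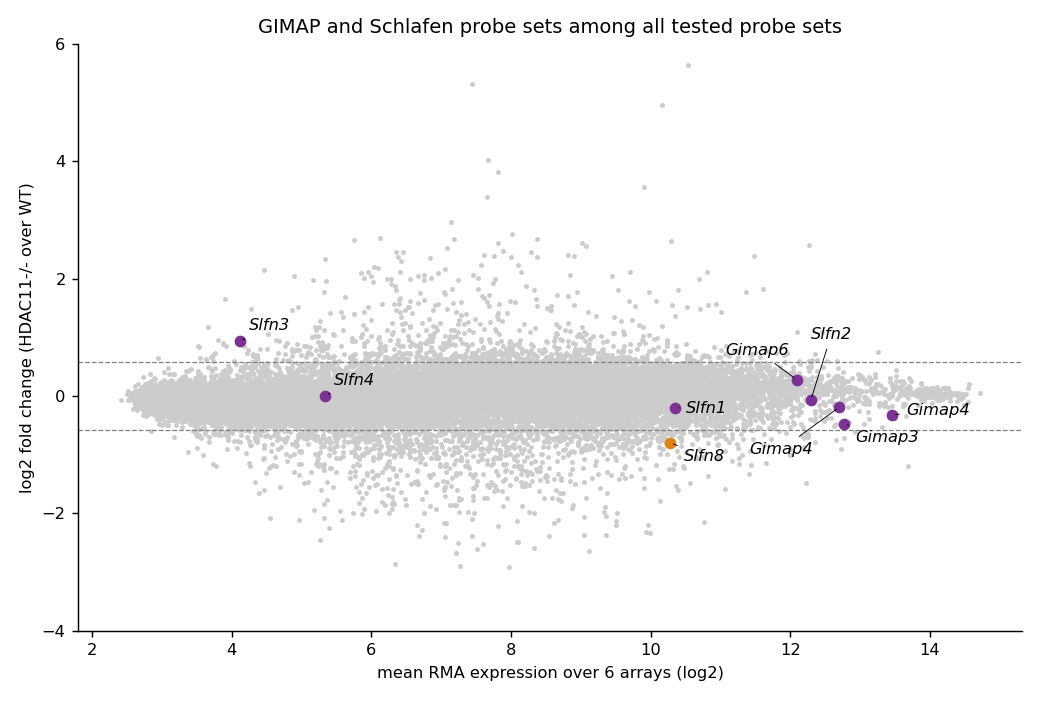
Log2 fold change (HDAC11-/- over WT) against mean expression over the 6 arrays (RMA, log2) for all 22626 tested probe sets (grey), with the 8 member probe sets in purple and Slfn8 in orange; dashed lines mark 1.5-fold. The GIMAP members and Slfn2 lie at the bright end inside the lines, Slfn8 lies below the lower line, and Slfn3 lies above the upper line at the dim end, where both genotypes were within the control range.

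Over the 6 arrays, the pattern of Gimap4 (_s_at) was most like that of Sirt7, Plekha1, Cdk16, Arhgef18 and Tfpt, with Pearson r of 0.998 to 0.999. It was shared at r above 0.99 with 223 of 12392 other genes. The pattern of Slfn2 was most like that of Ky, Acp2, Pde8a, Tspo2 and Lmod1 (r of 0.992 to 0.996), and 9 of 12392 genes passed r of 0.99. These coefficients describe 6 arrays that fall into 2 genotypes, and carry no test.

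Other genes of T cell quiescence did not move as one group. By the brightest probe set of each gene, 5 of 27 measured genes were called higher and 0 lower, beside 3.46% of 12393 genes called higher and 3.72% called lower. The higher ones were Klf4 (4.03), Klf2 (1.09), Tsc22d3 (1.57), Tob1 (1.16) and Tob2 (0.80), of which Klf2 is the transcription factor that holds naive T cells at rest and Tob1 is an antiproliferative protein. Il7r, the receptor for the survival cytokine IL-7, had a log2 fold change of -0.44 (limma adjusted p = 0.000527), below the fold threshold as Gimap3 was, and a dimmer probe set of it was called lower (-0.76). Dimmer probe sets of Cdkn1b (-0.99) and Runx1 (-0.99) were called lower as well, where their brightest ones were not called. Foxo1 differed by 0.08 (limma adjusted p = 0.223). Foxp1, a repressor of T cell activation, differed by -0.48 at its brightest probe set (limma adjusted p = 0.00187), and its 7 probe sets disagreed, from -2.64 (called lower) to 0.20. The list's median was 0.10, against -0.04 over all genes and -0.07 over the 7 members by the same rule.

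Proliferation genes went up in the same bulk samples, with 11 of 11 measured genes called higher and a median log2 fold change of 2.30. Among interferon-stimulated genes, 1 of 23 was called lower, Mx1 (-0.65), and 0 were called higher by the brightest probe set, near the 3.72% and 3.46% of all genes. A dimmer probe set of Trim30a was also called lower (-0.76), beside -0.29 at its brightest. Without the fold threshold, 5 of the 23 were higher and 10 lower by the brightest probe set, with a list median of -0.09. Over all probe sets, dim ones included, 23.2% were higher and 22.4% lower. The share over genes by their brightest probe set was not counted, so these shares are not of like units. Of 6 measured BCL2 family genes, whose products several GIMAP proteins bind, 0 were called in either direction by the brightest probe set. The probe sets of Bcl2l11, which promotes apoptosis, disagreed, with 1 dimmer probe set called lower (-0.63) and 1 called higher (0.71, within the control range in WT Tregs), beside 0.04 at the brightest. Without the fold threshold, Bak1, which promotes apoptosis, was higher (0.56, limma adjusted p = 0.0019) and Bcl2, which opposes it, was lower (-0.38, limma adjusted p = 0.00519).

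**Figure D4:**
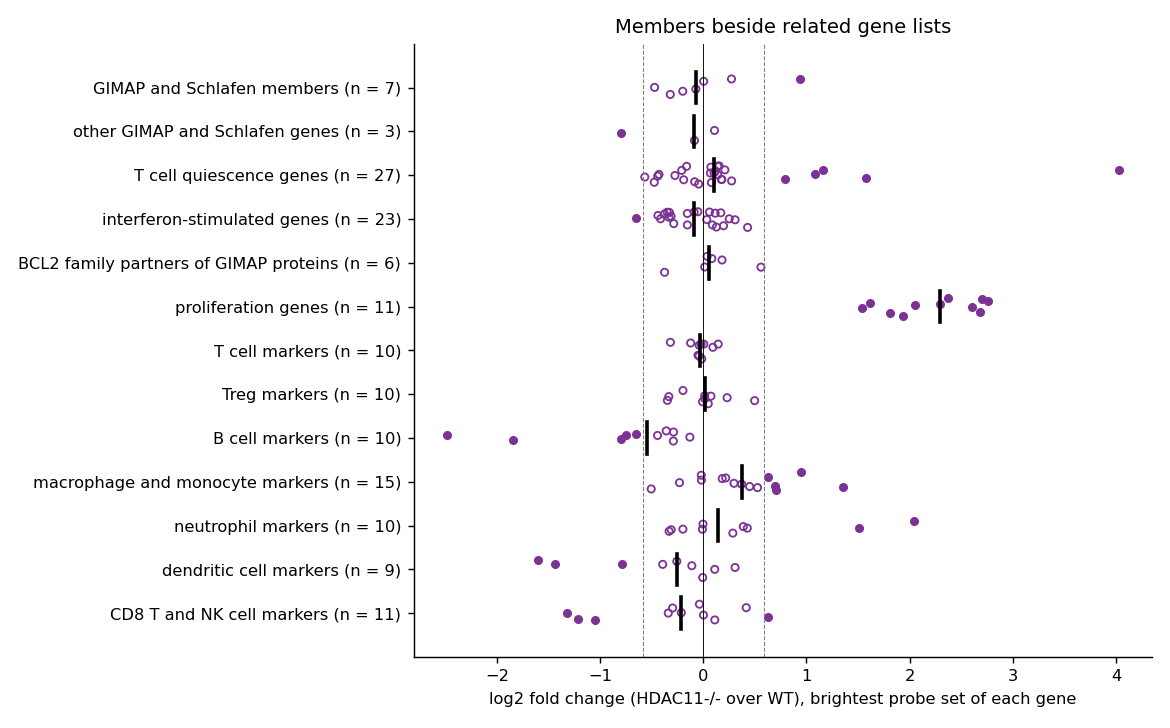
Log2 fold change (HDAC11-/- over WT) of the brightest probe set of each gene, for the members and the related gene lists; filled points were called, thick bars are list medians, dashed lines mark 1.5-fold, and heights within a row are spread only for legibility. The members centre on -0.07, proliferation genes on 2.30 and B cell markers on -0.55.

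B cells express GIMAP genes as well, and B cell markers were called lower in HDAC11-/- Tregs for 5 of 10 measured genes. Over all genes, 3.72% were called lower. Without the fold threshold, 8 of the 10 markers passed as lower, and Blk had the widest gap (-2.48). The 10 markers summed to 877 to 920 on the linear scale in HDAC11-/- Tregs, against 1850 to 1914 in WT Tregs. Pax5 and Ebf1 were among 4 of these within the control range in both genotypes. Dendritic cell markers were called lower for 3 of 9, H2-Aa (-1.60), H2-Ab1 (-1.43) and Cd74 (-0.79). These 3 genes serve antigen presentation by MHC class II in B cells as well, and do not tell dendritic cells from B cells. The 9 summed to 2741 to 2768 in HDAC11-/- Tregs, against 5292 to 5430 in WT Tregs. H2-Aa and Cd74 were the brightest of them in both genotypes and weigh most in the sums. Without the fold threshold, 5 of the 9 were lower, Itgax (-0.39) and Zbtb46 (-0.26) included, and 1, Bst2 (0.31), was higher. Flt3 (0.11), Cd209a (-0.01) and Xcr1 (-0.11) did not pass. CD8 T and NK cell markers were called lower for 3 of 11, Fcer1g (-1.32), Gzma (-1.21) and Ncr1 (-1.04), and higher for 1, Klrc1 (0.63). The 11 summed to 2095 to 2221 in HDAC11-/- Tregs, against 2683 to 2763 in WT Tregs. Without the fold threshold, 5 of the 11 were lower and 2 higher. The CD8 genes themselves did not fall, with Cd8b1 higher (0.42, limma adjusted p = 0.00671) and Cd8a not passing (-0.04). T cell markers were called in neither direction for 10 of 10 and summed to 46250 to 47110 in HDAC11-/- Tregs and 46650 to 47510 in WT Tregs. Without the fold threshold, Cd4 was lower (-0.32, limma adjusted p = 0.00121), Thy1 was higher (0.14, limma adjusted p = 0.0438) and 8 did not pass. The part of the other cell types in the Gimap3, Gimap4, Slfn1 and Slfn8 values was not tested.

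The labelled deletion was not visible at the Hdac11 probe sets. One read 6.36, 6.28 and 6.22 in HDAC11-/- Tregs, against 6.31, 6.37 and 6.53 in WT Tregs (-0.12, limma adjusted p = 0.222), and the other differed by -0.10 (limma adjusted p = 0.532). Whether these probes fall inside the deleted exons was not known, so they do not check the labels, and every direction above rests on the labelled genotype. Foxp3, the defining gene of Tregs, was within the control range in both genotypes (3.73 in HDAC11-/- Tregs and 3.68 in WT Tregs), whereas Il2ra, Ctla4, Tnfrsf18 and Tnfrsf4 were above it. Of 10 measured Treg markers, 0 were called in either direction by the brightest probe set. Without the fold threshold, Ctla4 (0.50) and Capg (0.23) were higher. Gpr83 (-0.33), Izumo1r (-0.20) and Ikzf2 (-0.35) were lower, and 5 did not pass. Arrays of a genotype correlated at 0.998 to 0.999 for HDAC11-/- and 0.997 to 0.998 for WT, and at 0.985 to 0.988 between genotypes.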

How the data were processed

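RNA of CD4+CD25+ Treg cells from HDAC11-/- and WT mice was read on 6 arrays. The deposited values were log2 expression per probe set after the authors' robust multi-array averaging (RMA), which corrects background and sets all arrays to one distribution, so changes are relative within an array. A further effect is that dim probe sets are pulled towards a floor, and the number of arrays limits the precision. The 45 control probe sets among 22671 did not enter the tests. The platform annotation gave 20380 probe sets 1 gene symbol, 691 several and 1555 none.

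HDAC11-/- was tested over WT with limma 3.58.1 (lmFit and eBayes, 2-sided) in R 4.3.3, adjusted over all 22626 probe sets, with calls set at a 1.5-fold change and an adjusted p under 0.05. The study used these thresholds with SAM. A group counted as within the control range when all its arrays lay at or below the brightest bacterial control of the same array. Named genes were all members, all measured relatives, the called genes of 3 related lists, and Klf2, Foxo1, Foxp1 and Il7r. Other genes with values in the text, such as Bak1, Bcl2, Bcl2l11, Trim30a, Cdkn1b, Runx1, Tmem176a and Tmem176b, were named after their values were seen. The scripts were tested on simulated data. Promoters were searched over 250 bases before each RefSeq start. Alternatives were SAM over 20 labelings, other variance models, array weights, scalings, filters, fold thresholds, the replicate number as a block, and leaving out each array. Members and lists were chosen with earlier results of these data known.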

Additional observations from a re-analysis of the deposited data

How the results depend on the processing

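Scaling on reference genes moved the median of all probe sets to -0.18 (log2) and the total calls to 490 higher and 1941 lower, against 876 and 1138 as deposited. Under it 1 member, Gimap3 (-0.62), was called lower, and Slfn4 had a log2 fold change of -0.14. Members called higher numbered 0 with only bright probe sets, where Slfn3 is left out, 2 with no fold threshold and 0 at 2-fold, and members called lower numbered 4 with no fold threshold. Leaving out each array in turn left 1 member called higher and 0 lower, and the log2 fold change of Slfn4 ranged from -0.0735 to 0.0922. Totals at other fold thresholds were 5254 higher and 5070 lower with none, and 253 and 393 at 2-fold. Gimap3 passed adjusted p under 0.05 in all 14 alternatives (-0.62 to -0.45), as did the Gimap4 _s_at probe set (-0.47 to -0.30). The Gimap4 _at probe set missed it in 7, Slfn1 in 3 and Gimap6 in 1. Slfn2 passed in 3, with a trended robust prior (adjusted p = 0.0292), on reference genes (-0.22) and after cyclic loess (-0.15), which was added after seeing the data. Slfn8 stayed between -0.94 and -0.75. Samples shared only a replicate number (deviation correlations 0.23, -0.019 and 0.163; 4 of 6 arrays correlated best with their own number). With the replicate number as a block, 1 member was called higher and 0 lower, totals were 877 and 1154, and the Gimap4 _at probe set had a limma adjusted p of 0.0721.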
